A study of Arabidopsis thaliana with 6 samples.

Results

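STOMAGEN, FMA, SIM and YAB3 are 4 regulators of how the young shoot of Arabidopsis thaliana builds its epidermis and its leaves. They were taken as the probe sets annotated to exactly 1 of these genes in the deposited table of array values. Each gene had 1 such probe set, so 4 of 22746 non-control probe sets, or 4 of 13350 genes with a probe set of their own, are described here on all 6 arrays. RNA came from whole seedlings of 9 days of age, either wild type (Col-0) or the myb3r1 myb3r4 double mutant in the Col-0 background. MYB3R1 and MYB3R4 encode MYB transcription factors known for activating genes of mitosis and cytokinesis. All seedlings grew without treatment at 22 °C under constant light, on MS agar that held 2% sucrose. The 6 arrays form 3 experimental sets, and a set pairs 1 array of wild type with 1 of the mutant, so n is 3 per genotype. The labels name neither the mutant alleles nor the number of seedlings per sample. Nor do they say that the sets came from different cultures, and the spread behind the p-values may therefore be technical.

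Stomata arise from a short series of epidermal divisions that are started, directed and ended by related basic helix-loop-helix transcription factors. SPCH starts the lineage, MUTE ends its asymmetric divisions, and FMA (also FAMA) ends the last division and sets guard cell fate. STOMAGEN is a secreted peptide made in the leaf's inner tissue that promotes stomata and competes with the inhibitory EPF peptides at their receptors. SIM (SIAMESE) is an inhibitor of cyclin-dependent kinases that lets trichomes replicate DNA without dividing, and YAB3 is a YABBY transcription factor of the lower side of leaves and other lateral organs. MYB3R1 and MYB3R4 are known to be needed for complete cytokinesis, also in the stomatal lineage.

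A level is the log2 ratio of a probe set's signal to its array's median signal, and 0 therefore marks a middling signal. Differences are mutant level minus wild-type level, from a paired fit in which the set is a block. Neither mutated gene had a named probe set, so the genotypes were not checked on these arrays. The leaf gene RCA had levels from 6.33 to 6.99 and the root and hypocotyl gene PYK10 from 5.64 to 6.54, so transcripts of both parts of the seedling were present. Among 13648 probe sets tested, 19 were lower and 53 higher in the mutant at an adjusted p of 0.05 in limma. Without the authors' division by the array median these counts were 33 and 41. The signal of control genes at the 3' end minus that at the 5' end, a measure of RNA or cRNA integrity, differed between arrays. In sets 1 to 3 it was 1.07, 3.04 and 3.22 for wild type and 1.50, 1.92 and 2.44 for the mutant. It is given below beside the genes that moved with it.

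None of the 4 genes passed the test between the genotypes. Over all tested probe sets 0.528% passed it, which is close to a count of 0 of 4. At an unadjusted p of 0.05, 0 of the 4 and 17.4% of all tested probe sets passed. The 4 fitted differences were between -0.11 and 0.23 and lay among the bulk of all tested probe sets, which had a median difference of 0.058 and quartiles of -0.13 and 0.25. In whole seedlings, fewer cells of a type and less RNA per cell cannot be told apart.

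**Figure D1:**
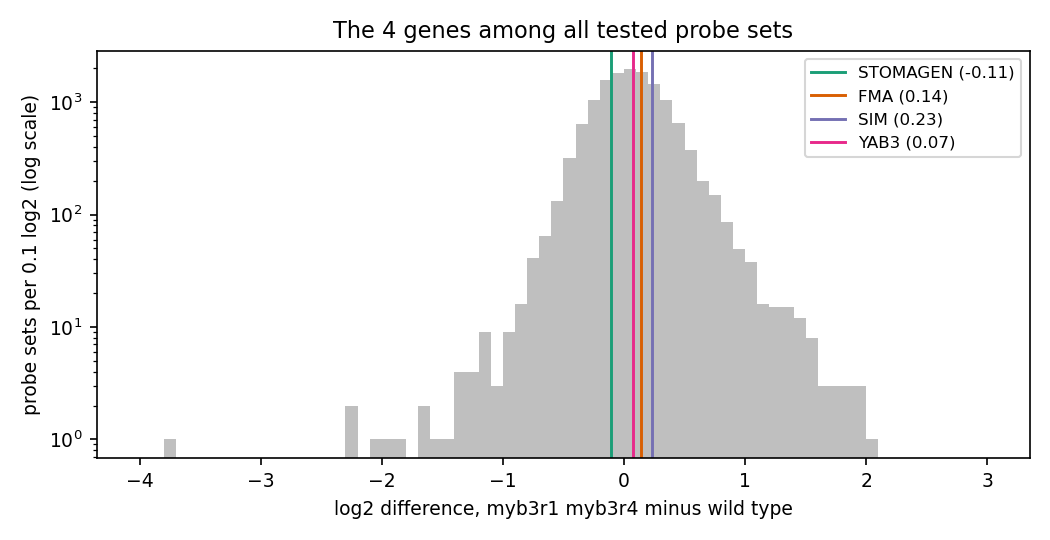
Histogram of the log2 difference, myb3r1 myb3r4 minus wild type, of 13648 tested probe sets (horizontal axis) with the number of probe sets per bin on a log scale (vertical axis). Coloured lines mark STOMAGEN at -0.11, FMA at 0.14, SIM at 0.23 and YAB3 at 0.070, all within the central part of the distribution.

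STOMAGEN was brightly measured, its mean level standing above 89.0% of non-control probe sets. Its levels in sets 1 to 3 were 1.95, 3.24 and 3.22 in wild type and 2.63, 2.56 and 2.89 in the mutant. Wild-type set 1 was the lowest and the other wild-type arrays were the highest, so the mutant arrays lay between them and the genotypes overlapped. Wild type averaged 2.80 ± 0.74 and the mutant 2.70 ± 0.18 (SD, n = 3 each). The fitted difference was -0.11 (SE 0.24, limma adjusted p = 0.839). Its 95% interval ran from -0.65 to 0.43, that is from 0.638 to 1.35 times the wild-type level. Within the sets the differences were 0.68, -0.68 and -0.32, so the mutant was higher in set 1 and lower in sets 2 and 3.

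The control 3' minus 5' signal differed between mutant and wild type by 0.44, -1.12 and -0.78 in the same 3 sets, with the same sign as STOMAGEN in each. This pattern of signs was shared by 14.6% of all tested probe sets. With the control signal as a covariate the STOMAGEN difference was 0.31 (SE 0.15, limma adjusted p = 0.361), with its sign turned. Without set 1 it was -0.50 (limma adjusted p = 0.0970), without set 2 it was 0.18 and without set 3 it was 9.5e-04, so single sets decided both its sign and its size.

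FMA was dimmer, with a mean level above 43.9% of non-control probe sets and just past the brightness filter. Its levels in sets 1 to 3 were 0.16, -0.98 and -0.81 in wild type and -0.057, -0.71 and -0.44 in the mutant. Both arrays of set 1 were above the other 4 arrays, whatever the genotype, and within each genotype set 1 was the highest. Wild type averaged -0.54 ± 0.61 and the mutant -0.40 ± 0.33 (SD, n = 3 each). The fitted difference was 0.14 (SE 0.20, limma adjusted p = 0.738), with an interval from -0.31 to 0.59, or 0.807 to 1.50 times the wild-type level. The differences within the sets were -0.21, 0.26 and 0.37, opposite in sign to the control 3' minus 5' difference in each set. This opposite pattern of signs was shared by 13.5% of all tested probe sets. With that signal as a covariate the FMA difference was -0.032 (limma adjusted p = 0.962). Without set 1, 2 or 3 it was 0.32, 0.078 and 0.025.

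**Figure D2:**
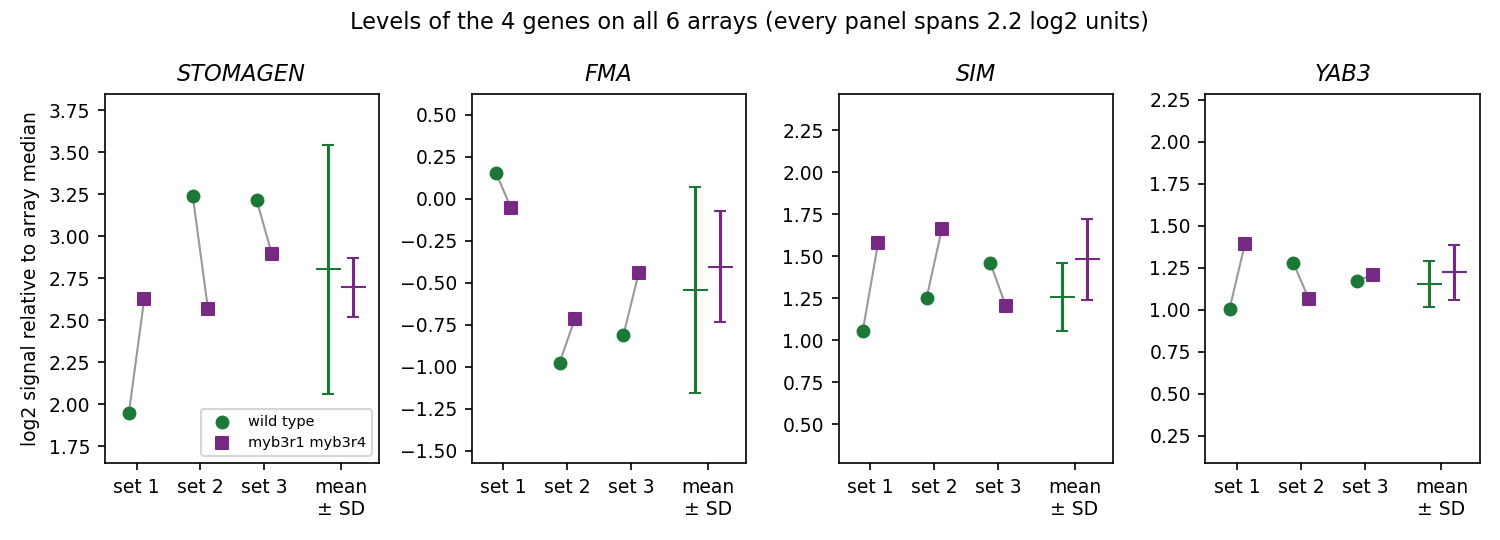
Log2 signal relative to the array median (vertical axis) of each gene in sets 1 to 3, for wild type (circles) and myb3r1 myb3r4 (squares), with a line joining the arrays of a set and the mean ± SD of each genotype at the right (n = 3). All panels cover the same log2 range. STOMAGEN and FMA varied most, from 1.95 to 3.24 and from -0.98 to 0.16, while YAB3 stayed between 1.01 and 1.39.

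The other stomatal genes with a named probe set were SPCH and MUTE, both too dim for the brightness filter. Of 26 listed genes of the stomatal lineage 4 had a named probe set, 2 were tested and 0 passed in either direction. No named probe set was found for the receptors TMM and ER, the inhibitory peptides EPF1 and EPF2 or the bHLH partner ICE1, and none for any of the 8 listed genes of guard cells and myrosin cells. SPCH had levels of -0.042, -2.17 and -1.68 in wild type and -0.022, -1.35 and -3.18 in the mutant in sets 1 to 3. As for FMA, both arrays of set 1 were above the other 4 arrays, and the range over the arrays was 8.94-fold. In the unfiltered fit SPCH differed by -0.22 between the genotypes (SE 0.44, limma adjusted p = 0.869). The 3 sets gave 0.021, 0.82 and -1.50. MUTE was near the lower end of the arrays' signals, between -4.71 and -2.87, and differed by -0.0057 (SE 0.61) in that fit.

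The levels of FMA and SPCH lay further apart between sets than between genotypes. Both arrays of set 1 stood above the other 4 for 20.4% of all tested probe sets, so this arrangement was common on these arrays. A moderated F test between the sets, added after seeing the data, gave FMA an unadjusted p of 0.0131 and an adjusted p of 0.0886 in limma. For STOMAGEN the same limma test gave an adjusted p of 0.197, and 8.61% of all tested probe sets passed it. Without set 2, which leaves sets 1 and 3, FMA and STOMAGEN passed (limma adjusted p = 0.0455 and 0.0220), as did 24.3% of all tested probe sets. Neither passed without set 1 (limma adjusted p = 0.902 and 0.900) or without set 3 (limma adjusted p = 0.0565 and 0.193). SPCH had a limma adjusted p of 0.0860 between sets in the unfiltered fit, where 3.01% passed. The control 3' minus 5' signal was lowest in both arrays of set 1. With it as a covariate, the limma adjusted p between sets was 0.529 for FMA and 0.589 for STOMAGEN. That fit leaves 1 residual degree of freedom and its covariate overlaps with the sets, so it cannot tell the control signal and the sets apart.

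SIM had the largest fitted difference of the 4 genes in the paired fit, but not in every alternative. STOMAGEN had a larger absolute one with quantile normalization (-0.26 against 0.17) and with the median division undone (-0.23 against 0.10). Without set 1, STOMAGEN (-0.50), FMA (0.32) and YAB3 (-0.088) all had larger absolute differences than SIM (0.080). Without set 2, YAB3 (0.21) and STOMAGEN (0.18) did so (SIM 0.13). The SIM levels in sets 1 to 3 were 1.06, 1.25 and 1.46 in wild type and 1.58, 1.66 and 1.21 in the mutant. The highest arrays were the mutant ones of sets 2 and 1, but the mutant array of set 3 was below 2 of the 3 wild-type arrays, so the genotypes overlapped. Wild type averaged 1.25 ± 0.20 and the mutant 1.48 ± 0.24 (SD, n = 3 each). The fitted difference was 0.23 (SE 0.18, limma adjusted p = 0.533), a 1.17-fold higher mean, with an interval from -0.18 to 0.64 or 0.881 to 1.56 times the wild-type level. Among all tested probe sets 41.4% had a larger difference in either direction. The differences in the sets were 0.52, 0.41 and -0.25, with the sign of the control 3' minus 5' difference in sets 1 and 3 and the opposite sign in set 2. The limma difference was above 0 in all 11 alternatives run, from 0.080 without set 1 to 0.47 without set 3, and passed in none of them. With no block, no trend, no filter or the brightest 40% it stays at 0.23 by construction. Leaving out a set reuses the same differences within the sets. The alternatives are therefore no independent evidence on its sign.

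Among 16 listed genes of CDK inhibitors 5 had a named probe set, 3 were tested and 0 passed, with 2 of the tested genes higher and 1 lower in the mutant. Beside SIM these were 4 loci that carry only locus names in the annotation used here. The list holds them as the SIM relatives SMR2 (AT1G08180), SMR3 (AT5G02420), SMR6 (AT5G40460) and SMR8 (AT1G10690). AT1G08180 had levels of -0.72, 0.24 and 0.048 in wild type and -0.95, -0.048 and -0.54 in the mutant. It was lower in the mutant in all 3 sets, by 0.23, 0.29 and 0.59, which 41.8% of all tested probe sets matched by having 1 sign in all sets. Its fitted difference was -0.37 (SE 0.18, limma adjusted p = 0.321). Both arrays of set 1 were below the other 4 arrays for this gene, as for 19.1% of all tested probe sets. AT5G02420 differed by 0.32 (SE 0.24, limma adjusted p = 0.511). Sets 1 to 3 gave 0.57, 0.72 and -0.34, the order of signs seen for SIM and in 7.48% of all tested probe sets. The dimmer AT5G40460 and AT1G10690 differed by -0.12 and -0.27 in the unfiltered fit (limma adjusted p = 0.866 and 0.734) and were lower in the mutant in all 3 sets.

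Of the genes that act with SIM on endoreduplication or on trichomes, few could be read. BIN4, a component of the plant topoisomerase VI complex needed for endoreduplication, was the single gene with a named probe set among 21 listed regulators. It lay below the brightness filter, at -1.30, -1.46 and -1.06 in wild type and -1.73, -1.40 and -1.98 in the mutant. Its difference of -0.43 (SE 0.31, limma adjusted p = 0.597) came from sets 1 and 3, at -0.43 and -0.92, while set 2 gave 0.066. TRY, a small MYB protein that keeps neighbouring cells from becoming trichomes, was the single gene of 13 listed for trichome fate. Its levels were between -1.19 and -0.37 and its difference in the unfiltered fit was 0.013 (SE 0.23), with an interval from -0.52 to 0.55.

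**Figure D3:**
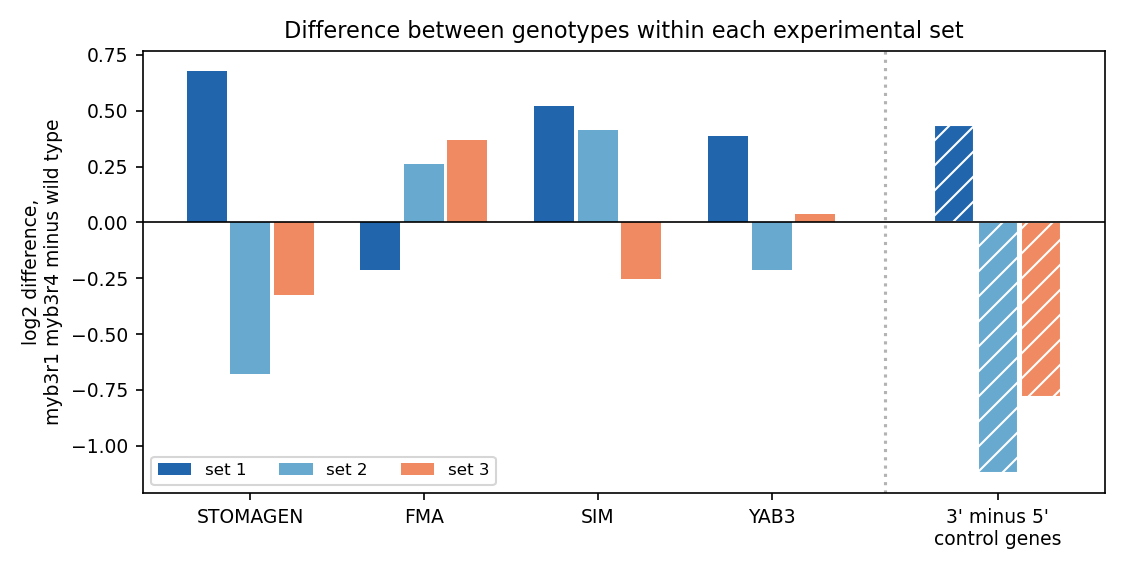
Log2 difference, myb3r1 myb3r4 minus wild type, within sets 1 to 3 (bars in that order) for the 4 genes, and at the right the same difference for the control 3' minus 5' signal (hatched). STOMAGEN has the signs of the control bars in every set (0.68, -0.68 and -0.32 beside 0.44, -1.12 and -0.78) and FMA the opposite signs.

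YAB3 was the steadiest of the 4 genes. Its levels in sets 1 to 3 were 1.01, 1.28 and 1.17 in wild type and 1.39, 1.07 and 1.21 in the mutant. All 6 arrays lay within a 1.31-fold range, with the lowest and the highest both in set 1 and the genotypes mixed between them. Wild type averaged 1.15 ± 0.14 and the mutant 1.22 ± 0.16 (SD, n = 3 each). The fitted difference was 0.070 (SE 0.16, limma adjusted p = 0.845), with an interval from -0.30 to 0.44 or 0.814 to 1.36 times the wild-type level. Of all tested probe sets 80.2% had a larger difference in either direction. The differences in the sets were 0.39, -0.21 and 0.036, an order of signs shared by 10.1% of all tested probe sets. The sign of the fitted YAB3 difference was not stable. It was -0.053 with the median division undone and -0.088 without set 1. The moderated F test between the sets gave a limma adjusted p of 0.993.

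Of 19 listed genes of organ polarity 4 had a named probe set and 3 were tested. None passed, with YAB3 and YAB5 higher and PHV lower in the mutant. YAB5, another YABBY gene of leaves, had levels of 1.12, -0.081 and -0.018 in wild type and 1.01, 1.13 and 0.55 in the mutant. The wild-type arrays of sets 2 and 3 were the lowest, but the genotypes overlapped through set 1, where both arrays were high. Wild type averaged 0.34 ± 0.68 and the mutant 0.90 ± 0.31 (SD, n = 3 each), and the fitted difference was 0.56 (SE 0.23, limma adjusted p = 0.268). This was the largest absolute difference among the tested genes of all lists, and 6.87% of all tested probe sets had a larger one. The differences in the sets were -0.11, 1.21 and 0.57. Without set 1 YAB5 was called higher in the mutant, at 0.89 (limma adjusted p = 0.0204), but 8.11% of all tested probe sets passed then. Without set 2 it was 0.23 (limma adjusted p = 0.716) and without set 3 it was 0.55 (limma adjusted p = 0.528). With the control 3' minus 5' signal as a covariate it was 0.18 (limma adjusted p = 0.680).

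PHV, a homeodomain leucine zipper gene of the upper leaf side, ran the other way. Its levels were 0.76, 1.75 and 2.05 in wild type and 1.21, 1.38 and 1.64 in the mutant in sets 1 to 3. Wild type held both the lowest and the highest array, and both arrays of set 1 were the lowest. Its difference was -0.11 (SE 0.19, limma adjusted p = 0.788), and in the sets 0.45, -0.37 and -0.41, the signs of the control 3' minus 5' difference. INO, a YABBY gene known from ovules, was dim, between -5.54 and -2.54, and its difference of -0.25 had an interval from -2.13 to 1.64. CLV3, the stem cell peptide gene and the single readable gene of 6 listed for the shoot meristem, was dimmer still, at -6.86 to -5.38.

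**Figure D4:**
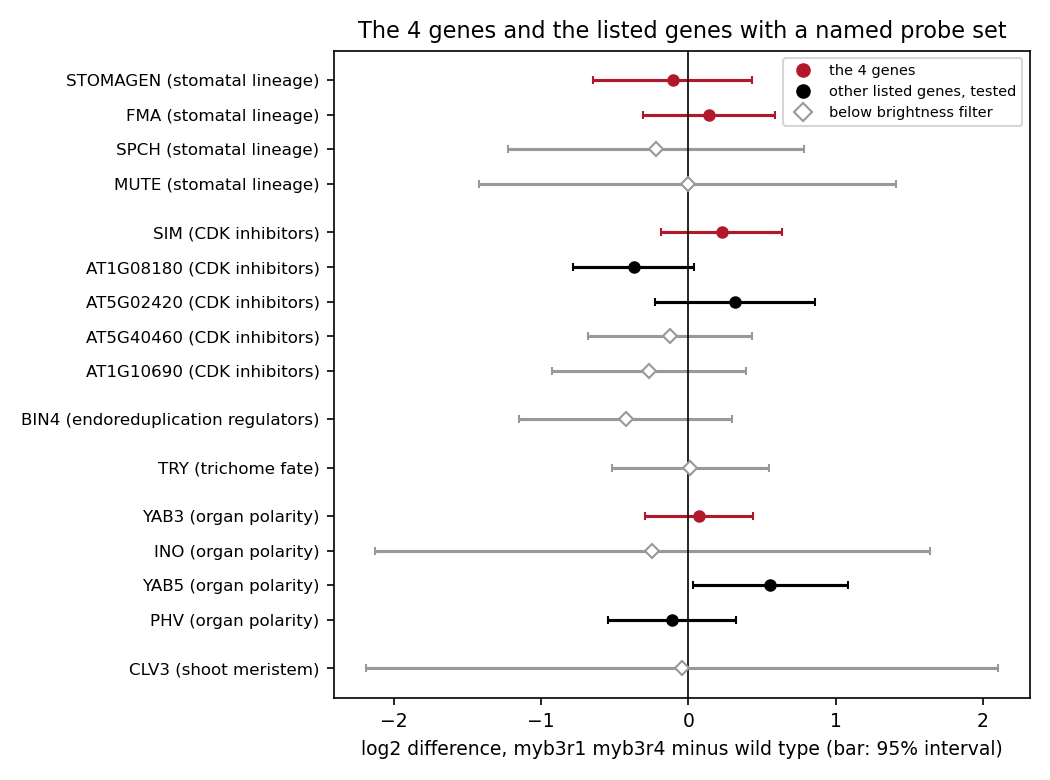
Fitted log2 difference, myb3r1 myb3r4 minus wild type, with its 95% interval (bars) for the 4 genes and the other listed genes with a named probe set, labelled with their list. Filled circles were tested and open diamonds were below the brightness filter and come from the unfiltered fit. The interval of YAB5, from 0.028 to 1.08, is the single one that leaves out 0, and YAB5 did not pass after adjustment. Of all tested probe sets 17.4% had an unadjusted limma p under 0.05. In the unfiltered fit the unadjusted limma p of YAB5 was 0.0508.

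Several of these genes followed the control 3' minus 5' signal from array to array. When the 6 arrays are put in the order of that signal, the PHV level rose at every step, as it did for 0.945% of all tested probe sets. None of these genes fell at every step, as 1.33% of all tested probe sets did. STOMAGEN was lowest on the array with the lowest control signal and highest on both arrays with the highest. FMA and YAB5 were lowest on those 2 arrays, and FMA was highest where the control signal was lowest. SIM and YAB3 showed no such order. No share over all tested probe sets was computed for these looser orders. Pearson's r with the control signal was 0.95 for STOMAGEN, 0.97 for PHV, -0.89 for FMA and -0.94 for YAB5. For AT1G08180, AT5G40460, SPCH and INO it was 0.79, 0.77, -0.74 and 0.61. For SIM and YAB3 it was 0.081 and 0.26, and for the other listed genes it lay between -0.24 (MUTE) and 0.45 (CLV3). The share of all tested probe sets with an r as large was not computed, so these values are not shown to be particular to these genes. The control signal was lowest in both arrays of set 1. Of all tested probe sets, 20.4% had both arrays of set 1 above the other 4 and 19.1% had both below. The control signal also differed between the genotypes within each set, but not in a single direction. It was higher in the mutant in set 1 and lower in sets 2 and 3. With the control signal as a covariate, which leaves 1 residual degree of freedom, the signs of STOMAGEN, FMA and PHV turned and PHV differed by 0.17.

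**Figure D5:**
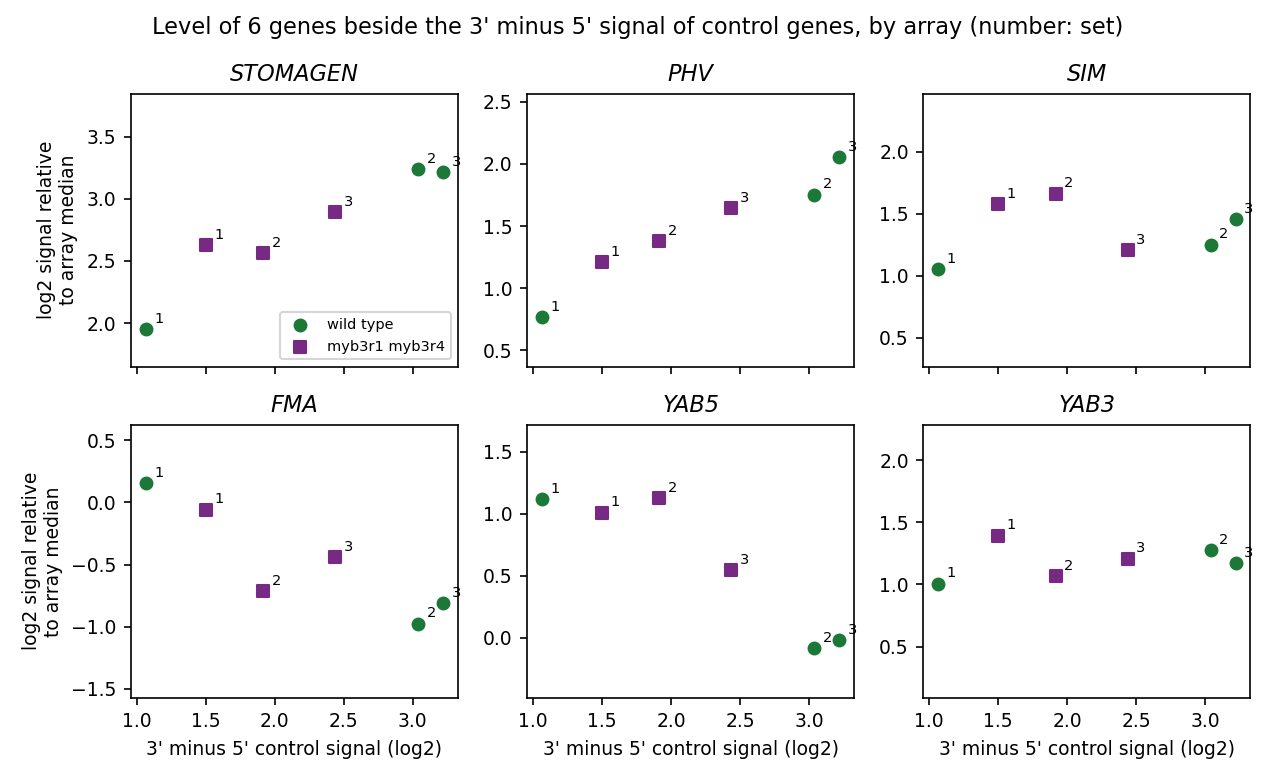
Log2 signal relative to the array median (vertical axes) of 6 genes against the mean 3' minus 5' log2 signal of control genes on the same array (horizontal axes), with wild type as circles, myb3r1 myb3r4 as squares and the set as a number. STOMAGEN and PHV are lowest at the left, at 1.95 and 0.76, FMA and YAB5 are high at the left and low at the right, and SIM and YAB3 follow no such order.

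The probe sets with the most similar levels were sought for each member among the other 7306 tested probe sets that carry 1 gene, by Pearson's r over the 6 arrays. For STOMAGEN these were AUR2, an Aurora kinase gene, with r = 0.994, and AT2G20050 and AT2G25670, both with r = 0.992. For FMA they were AT3G11830 (0.998), AT5G44090 (0.992) and AT4G01280 (0.992). For SIM they were AT3G58580 (0.979), AT1G15250 (0.968) and AT3G29010 (0.967), and for YAB3 AT4G32870 (0.987), AT3G30160 (0.974) and AT1G30820 (0.970). With 6 arrays and 7306 probe sets compared, values this high were found for every member. The arrays share their sets and their control signal, and the values describe likeness on these arrays alone. None of these 12 genes passed the test between genotypes. Their fitted differences lay between -0.068 for AT2G20050 and 0.30 for AT1G30820.

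The smallest absolute difference that passed among all tested probe sets was 0.85, or 1.80-fold, and the median of those that passed was 1.32. Passing also depends on a probe set's SE, so 0.85 is not a detection limit for the 4 genes. In the paired fit of all sets, the 95% intervals of the 4 genes all ended below 0.85 in both directions. The widest bounds were -0.65 for STOMAGEN and 0.64 for SIM. These intervals use limma's moderated variance, which borrows from the other probe sets (prior df 6.79, residual df 2). The STOMAGEN differences in sets 1 and 2, 0.68 and -0.68, both lay outside its interval of -0.65 to 0.43. Intervals from each gene's own spread between sets were not computed, so changes of 0.85 are not excluded. Fits without a set moved further, to -0.50 (SE 0.18) for STOMAGEN without set 1 and 0.47 (SE 0.26) for SIM without set 3. Intervals of those fits are not given here, so the bounds hold for the paired fit of all sets alone. Changes that lie within its intervals are left undecided by it.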

How the data were processed

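RNA of 6 whole-seedling samples was measured on Affymetrix arrays, 1 array per sample. Biotinylated cRNA was made from 10 µg of total RNA, per the labels' protocols. The deposited values are log2 signals. The signals were summarised with MAS5, per the submitters' processing notes. All columns have 0 as their median, which shows a division by the array median that no label names. The version of MAS5 is not stated in these sources. One array held 1 stand-in for a signal of 0, which was replaced by that array's lowest nonzero signal. Without the median division, median signals were 185.55 to 217, taking a step as 0.1 signal unit.

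Names came from the platform annotation, with symbols replaced by those that RefSeq's table (TAIR10.1) gives for the same identifier. A total of 13513 non-control probe sets had 1 gene, 503 had several and 8730 had none. RefSeq's table held 13436 of the first. Unnamed probe sets are unnamed here, not without a gene. No sequences are shown.

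Tests used limma 3.58.1 (R 4.3.3) on the 60% of probe sets with the highest mean level on the 6 arrays, with eBayes with trend, the set as a block (residual df 2, prior df 6.79) and Benjamini-Hochberg adjustment over all 13648. Dimmer genes take values from the unfiltered fit. Arrays were paired by the set given in the labels. Deviations of paired arrays from their genotype means correlated by 0.67, 0.28 and 0.62 in sets 1 to 3. Wild-type set 2 correlated by 0.37 with mutant set 3, above its own partner, and the other pairs of arrays from different sets by -0.61 to 0.16. The deviations sum to 0 within each genotype, so the values within and between sets are not independent of each other. The control signal is the mean over 6 pairs of 3' and 5' probe sets of actin, GAPDH and ubiquitin. The fit was tested on data simulated from the fitted model with independent noise. That simulation does not cover noise shared by the probe sets of an array, such as differences in the control signal.

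The members and lists were chosen with earlier results of these data known. Genes named are the members, their close relatives, the 2 listed genes per list with the largest differences, any past the test, and the 3 genes most like each member. The alternatives were no block, other brightness filters, quantile normalization, the median division undone, an offset before the log, no trend, the control covariate and leaving out each set.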

Additional observations from a re-analysis of the deposited data

How the results depend on the processing

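None of the 4 genes passed in limma under any of the alternatives run, with adjusted p values from 0.0970 (STOMAGEN without set 1) to 0.9998. FMA was not among the brightest 40% and has no value there. Signs that turned were those of YAB3 with the median division undone (-0.053), and of STOMAGEN (0.31), FMA (-0.032) and PHV (0.17) with the replicate block and the control covariate. Leaving out each set in turn gave -0.50 to 0.18 for STOMAGEN, -0.088 to 0.21 for YAB3 and -0.39 to 0.038 for PHV. The cause was not tested. Undoing the division shifted the median over all tested probe sets by -0.12, from 0.058 to -0.066. Measured from the first of these medians, the differences were -0.16 (STOMAGEN), 0.082 (FMA), 0.17 (SIM) and 0.013 (YAB3). Over all probe sets, 72 passed with the block, 1 without the replicate block, 14 without a filter, 43 among the brightest 40% and 194 with the control covariate. Leaving out each set gave 107 to 1107, the last without set 1. Of the listed genes 0 passed in every alternative except without set 1, where YAB5 did (0 to 1 over the sets left out). The number of arrays limits the precision, and MAS5 signals of dim genes such as MUTE, INO and CLV3 are noisy on a log scale.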
